A study of Mus musculus with 10 samples.

Results

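The plasminogen activators and the proteins that bind them were followed through a mouse model of gliomagenesis by the RNAseq levels of 4 genes: *Plau*, *Plat*, *Plaur* and *Serpine2*. The genes were taken by symbol, and all 4 were found among the 23230 features of the expression matrix and measured in all 10 libraries. *Plau* encodes urokinase (uPA) and *Plat* tissue plasminogen activator (tPA), the serine proteases that cut plasminogen into plasmin. *Plaur* encodes uPAR, a receptor anchored to the membrane by a lipid that holds uPA at the cell surface. *Serpine2* encodes protease nexin-1, a secreted serpin of glia and neurons that traps uPA, tPA and thrombin in complexes, which cells then take up through receptors of the LDL receptor family. Plasmin degrades fibrin and matrix proteins and releases growth factors, and the activators are known in brain for their part in cell migration, synaptic plasticity and the invasion of glioma.

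Every library came from p16/p19 KO (Ink4a/Arf-/-) cells of C57BL/6 mice that carried a retroviral vector for human EGFRvIII, a truncated and constitutively active EGF receptor. AstroEGFR* (3 libraries) were cortical astrocytes of pups at postnatal day 5, grown in fetal bovine serum, from the astrocyte batches 1, 2 and 3. PT (4 libraries) were glioma propagating cells cultured from the primary tumours that such astrocytes formed in the brain of CD1 Nude mice, grown without serum on laminin with EGF and FGF2. The study places PT1 and PT4 in batch 1, PT2 in batch 2 and PT3 in batch 3. AstroEGFR* Zfp423 (3 libraries) were the astrocytes of the same batches with a second vector, for the zinc-finger transcription factor *Zfp423*. There was 1 library per culture, and the text gives the library of batch 1 infected with *Zfp423* as AstroEGFR*1 Zfp423, and so on. Because medium and tumour passage changed together, they cannot be told apart in the comparison of PT with AstroEGFR*, and in bulk RNA fewer cells of a type cannot be told apart from less RNA per cell.

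Several properties of the libraries touch the values below. Levels are FPKM, that is, fragments divided by transcript length and by the number of mapped fragments of the library, so that genes can be compared, but no counts are given. The most common FPKM ratio over weakly expressed features put the depth of AstroEGFR*3 at 0.0743 and that of PT3 at 0.0915 of PT1, and the others at 0.518 to 0.901. *Zfp423* stood at 4.30, 3.25 and 3.48 FPKM in AstroEGFR*1 to AstroEGFR*3 and at 15.7, 9.73 and 105.1 FPKM in the same batches with the vector (0.641 to 2.78 FPKM in PT), and *Xist* and the Y-linked genes set the libraries of batch 2 apart from those of batches 1 and 3, which were alike in them. The 8 markers of microglia and macrophages were all at 1 FPKM or more in AstroEGFR*1 Zfp423 (sum 1526 FPKM) and AstroEGFR*2 Zfp423 (sum 883.5 FPKM), and summed to between 1.18 and 36.6 FPKM in the other 8 libraries. The 7 astrocyte markers summed to 27.0 FPKM in AstroEGFR*2 Zfp423, where *Gfap* was at 1.11 and *Aqp4* at 0.0266 FPKM, and to between 166.2 and 1029 FPKM elsewhere, so the astrocyte label was not borne out by this library. The 6 markers of fibroblasts, meninges and mural cells summed to more than the astrocyte markers in every AstroEGFR* library (1249 against 483.0, 1191 against 490.6 and 5750 against 1029 FPKM in batches 1 to 3). The same held in AstroEGFR*1 Zfp423 (3930 against 260.5 FPKM, with *Gfap* at 7.94 FPKM) and AstroEGFR*2 Zfp423 (6677 against 27.0 FPKM). *Acta2*, *Col1a1* and *Col1a2* made up most of these sums. *Dcn* and *Lum* were low in AstroEGFR*1 (8.03 and 1.21 FPKM) and AstroEGFR*2 (0.692 and 4.02 FPKM). Small non-coding RNA and histone features took between 0.519% and 6.24% of the FPKM in AstroEGFR*1, AstroEGFR*3, PT1, PT3 and PT4 and between 29.8% and 54.9% in the other 5 libraries. Libraries with and without *Zfp423* were thus unlike in this share in batches 1 and 3 and nearer in batch 2 (35.9% against 29.8%).

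Promoter sequence was found for *Plaur* and *Serpine2*, and is shown because *Serpine2* varied most of the 4 genes and *Plaur* was the gene that varied most against it (below). The 250 bases before the start site are written 5′ to 3′ on the strand of the gene, from RefSeq on GRCm38.p6, chr7:24462233-24462482 on the plus strand for *Plaur* and chr1:79858666-79858915 on the minus strand for *Serpine2*. Capitals mark the GC box GGGCGG and the AP-1 motif TGANTCA, each searched on both strands.
Plaur: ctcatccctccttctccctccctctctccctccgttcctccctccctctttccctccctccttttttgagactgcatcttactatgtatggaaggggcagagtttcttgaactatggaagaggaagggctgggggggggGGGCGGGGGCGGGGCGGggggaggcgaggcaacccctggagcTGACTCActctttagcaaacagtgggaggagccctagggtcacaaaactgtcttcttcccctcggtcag
Serpine2: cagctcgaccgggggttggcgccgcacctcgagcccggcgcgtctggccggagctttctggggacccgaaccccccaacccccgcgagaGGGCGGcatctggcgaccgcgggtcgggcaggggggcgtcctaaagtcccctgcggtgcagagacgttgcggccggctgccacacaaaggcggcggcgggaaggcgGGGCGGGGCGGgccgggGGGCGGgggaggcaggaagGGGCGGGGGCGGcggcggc
The window of *Plaur* held 1 AP-1 match, beginning 69 bases before the start site, and 3 GC boxes. An AP-1 match was present in 6.75% of the 32851 promoters of this length and a GC box in 32.7%, with 3 or more in 8.47%. The window of *Serpine2* held 6 GC boxes, some of which overlapped by 1 base, and no AP-1 match. As many GC boxes were present in 0.886% of promoters. The GC content was 59.6% for *Plaur* and 78.8% for *Serpine2*, against a median of 52.4% over all promoters. The palindromic SMAD motif GTCTAGAC, searched because ZFP423 is known to bind SMAD proteins, was in neither window and in 0.167% of all promoters. These matches describe letters in the window and not binding.

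Across the 10 libraries *Serpine2* had the highest mean level of the 4 genes, 141.6 FPKM, followed by *Plat* (98.0 FPKM), *Plaur* (19.2 FPKM) and *Plau* (12.6 FPKM). Among the 12476 features whose mean reached 1 FPKM, *Serpine2* and *Plat* ranked high, at the percentiles 96.2 and 93.7 of the mean level. The genes differed more in how much they varied. The SD of log2(FPKM + 1) over the libraries was 2.49 for *Serpine2* and 2.11 for *Plau*, against a median of 0.54 over all features, which put them at the percentiles 98.2 and 97.2. For *Plaur* it was 1.25 (percentile 87.7) and for *Plat* 0.74 (percentile 68.0). The tissue-type activator was thus the steadiest of the 4, with 4.55 times between its highest and lowest library, whereas the ranges of *Serpine2* and *Plau* spanned 203 and 190.4 times.

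**Figure D1:**
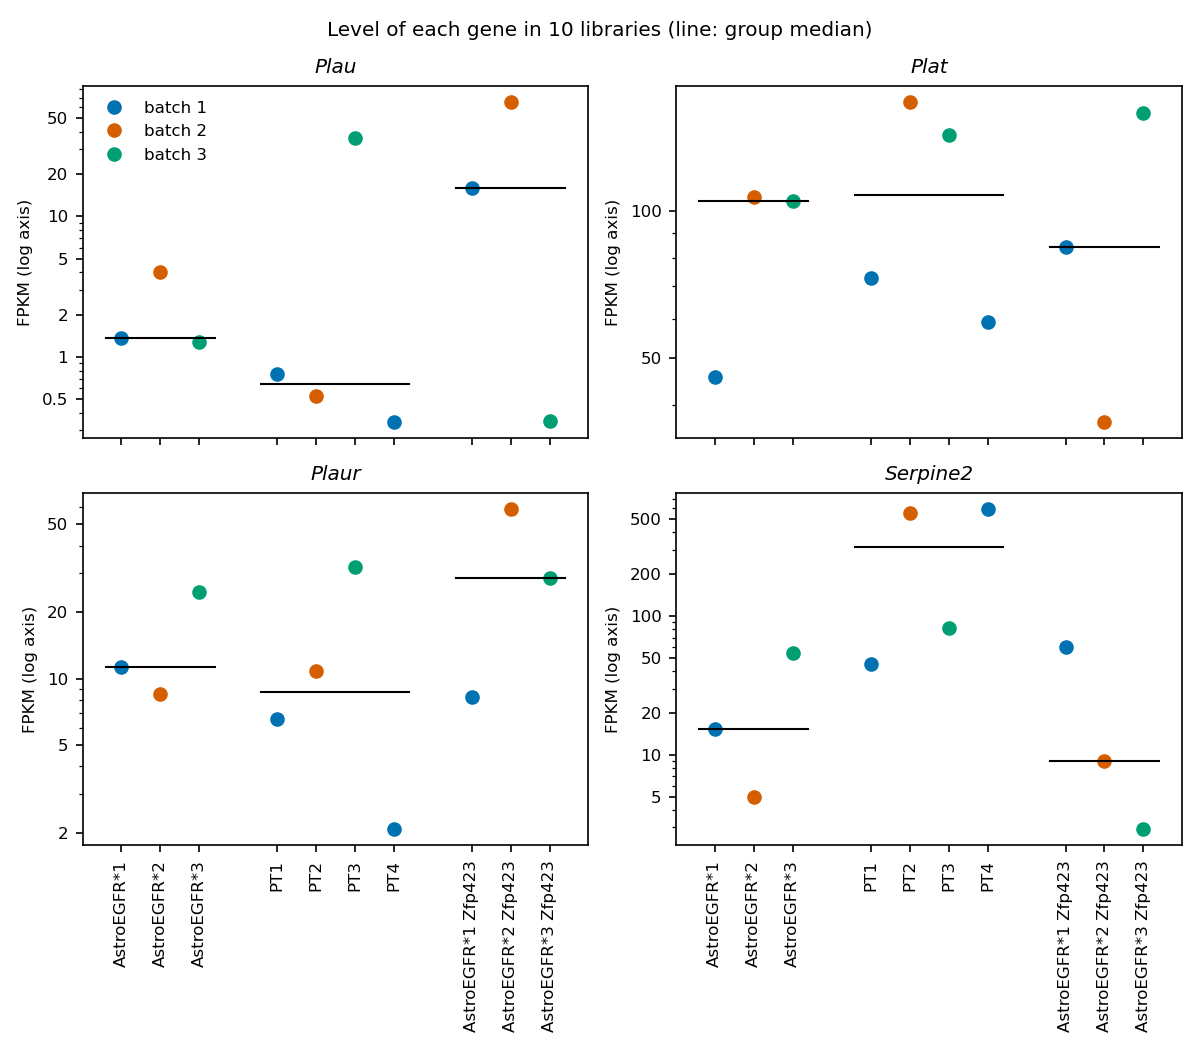
FPKM of each gene (log axis) in the 10 libraries, 1 point per library coloured by astrocyte batch, with a line at the median of each group. *Plat* stays between 36.8 and 167.4 FPKM, while *Plau* is near or below 4 FPKM in all libraries but PT3, AstroEGFR*1 Zfp423 and AstroEGFR*2 Zfp423.

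*Plau* was weakly expressed in most libraries and high in 3. In AstroEGFR* it was at 1.37, 4.02 and 1.28 FPKM in batches 1 to 3. The 4 PT cultures, from PT1 to PT4, held 0.759, 0.524, 36.0 and 0.342 FPKM, so that PT3 stood far above the other 3 cultures, which were all below every AstroEGFR* library. With *Zfp423* it was at 15.9, 65.1 and 0.351 FPKM in batches 1 to 3, above every AstroEGFR* library in batches 1 and 2 and below each of them in batch 3. The groups overlapped in both comparisons.

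*Plat*, the other activator, was expressed well in every library. Its levels were 45.6, 106.7 and 104.8 FPKM in AstroEGFR*, and in PT, again from PT1 to PT4, 72.7, 167.4, 143.0 and 59.2 FPKM. In AstroEGFR* Zfp423 they were 84.3, 36.8 and 159.2 FPKM. AstroEGFR*2 Zfp423 was the lowest of the 10 libraries for *Plat* and the highest for *Plau*, and the groups overlapped. In AstroEGFR* and PT alike, the libraries of batch 1 were lower than those of batches 2 and 3. The 6 markers of endothelium, a cell type known to make tPA, summed to at most 14.4 FPKM in any library. That sum, in AstroEGFR*2 Zfp423, was mostly *Flt1* (12.1 FPKM). The part of any cell type in the level of *Plat* was not tested.

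*Plaur*, the receptor for uPA, was at 11.3, 8.56 and 24.7 FPKM in AstroEGFR*. The levels in PT were 6.59, 10.9, 32.2 and 2.08 FPKM. With *Zfp423* it was at 8.22, 58.9 and 28.5 FPKM. Batch 3 was the highest of its group in AstroEGFR* and in PT, and batch 2 was the highest with *Zfp423*. All 3 groups overlapped, and the lowest library was PT4, 15.5 times below PT3.

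*Serpine2* was at 15.3, 4.95 and 53.7 FPKM in AstroEGFR*. The PT cultures held 44.8, 550.8, 82.4 and 592.4 FPKM in PT1 to PT4, with PT2 and PT4 above every other library. With *Zfp423* the levels were 59.9, 9.0 and 2.92 FPKM, the last being the lowest of all 10 libraries. PT1 lay below AstroEGFR*3, so PT and AstroEGFR* overlapped in this single pair of libraries. PT1 and PT4, both from batch 1, differed 13.2 times. The 7 astrocyte markers summed to 499.3, 557.6, 166.2 and 751.7 FPKM in PT1 to PT4. The sum in PT2 was mostly *Slc1a3* (296.3 FPKM, against 2.20 to 170.1 FPKM in the other PT), while *Gfap* (5.95 FPKM) and *Aqp4* (1.60 FPKM) were lowest there among PT. The 6 markers of the oligodendrocyte lineage summed to 1356, 144.2, 129.8 and 1674 FPKM in PT1 to PT4. *Olig1* (1000.3 and 1089 FPKM) and *Olig2* (328.0 and 360.4 FPKM) made up most of this sum in PT1 and PT4, whereas *Sox10* (8.18 and 117.3 FPKM), *Pdgfra* (1.25 and 41.9 FPKM) and *Cspg4* (18.0 and 64.5 FPKM) were higher in PT4. The 6 markers of fibroblasts, meninges and mural cells summed to 45.2, 0.684, 134.4 and 9.12 FPKM in PT1 to PT4, below every AstroEGFR* library. The part of any of these lists in the level of *Serpine2* was not tested.

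The order of the groups by median FPKM was AstroEGFR* Zfp423, AstroEGFR*, PT for *Plau* (15.9, 1.37 and 0.642) and for *Plaur* (28.5, 11.3 and 8.73). For *Plat* it was PT, AstroEGFR*, AstroEGFR* Zfp423 (107.9, 104.8 and 84.3), and for *Serpine2* the same (316.6, 15.3 and 9.0). Neighbours in these orders overlapped for all 4 genes. Over the 10 libraries, which share batches and differ in depth and library composition, Pearson's r of log2(FPKM + 1) was 0.57 between *Plau* and its receptor *Plaur* and −0.51 between *Plaur* and *Serpine2*, and between −0.26 and 0.13 for the other 4 pairs.

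How PT, the cells recovered from tumours, differed from the astrocytes that gave rise to the tumours was tested with limma on log2(FPKM + 1) over all 12261 features whose mean in the 7 libraries reached 1 FPKM, with Benjamini-Hochberg adjustment and a threshold of 0.05. *Serpine2* had a higher mean in PT, 7.55 ± 1.89 (SD, n = 4) against 4.13 ± 1.60 (SD, n = 3), but did not pass. Its log2 fold change of 3.43 (SE 1.11) was larger in size than that of 99.1% of features, with a limma adjusted p = 0.229. A two-sided exact permutation test of the group labels gave p = 0.114, and can give none below 0.0571 with 3 libraries against 4.

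The activators and the receptor differed less. For *Plat* the log2 fold change was 0.33 (SE 0.48, limma adjusted p = 0.835), with means of 6.67 ± 0.72 (SD, n = 4) in PT and 6.34 ± 0.69 (SD, n = 3) in AstroEGFR*. For *Plau* it was 0.18 (SE 1.16, limma adjusted p = 0.967), with means of 1.76 ± 2.30 and 1.59 ± 0.64. *Plaur* had means of 3.29 ± 1.43 and 3.85 ± 0.74 and a log2 fold change of −0.56 (SE 0.76, limma adjusted p = 0.821). Two-sided exact permutation tests gave p = 0.629, 0.914 and 0.571 for *Plat*, *Plau* and *Plaur*. The value of *Plau* rested on PT3: without it the log2 fold change was −0.97 (limma adjusted p = 0.412).

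None of the 4 genes was therefore called, against 152 of all features tested or 1.24%, with 0.318% called higher and 0.922% called lower in PT. The groups of libraries overlapped for all 4 genes and did not overlap for 14.8% of features. At an unadjusted p below 0.05 there was 1 of the 4, *Serpine2*, against 13.6% of features. AstroEGFR* and PT of 1 batch deviated together from their group means, and with the batch as a block and PT4 in batch 1 the number of features called was 475, or 3.87%. None of the 4 genes was among them, and *Plat* and *Serpine2* had an unadjusted p below 0.05, as did 25.4% of features.

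The differences were also taken within batches, where PT1 and PT4 were both set against the single library AstroEGFR*1. *Plat* was higher in every PT than in the AstroEGFR* of its batch, by 0.66, 0.64, 0.45 and 0.37 on the log2(FPKM + 1) scale in PT1 to PT4, or 1.59, 1.57, 1.37 and 1.3 times in FPKM. These differences were small but alike, and the block gave a log2 fold change of 0.53 (SE 0.16, limma adjusted p = 0.122). *Serpine2* was also higher in all 4, by 1.49, 6.53, 0.61 and 5.18, that is 2.92, 111.2, 1.53 and 38.7 times in FPKM. Its size differed between cultures, and with the block the log2 fold change was 3.48 (SE 1.31, limma adjusted p = 0.180). Being higher in all 4 cultures held for 21.7% of all features and being lower in all 4 for 18.2%. *Plau* was below its batch in PT1 (−0.43), PT2 (−1.72) and PT4 (−0.82) and was 4.02 above it in PT3. *Plaur* was lower in PT1 (−0.70) and PT4 (−2.0), both of batch 1, and higher in PT2 (0.31) and PT3 (0.37).

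**Figure D2:**
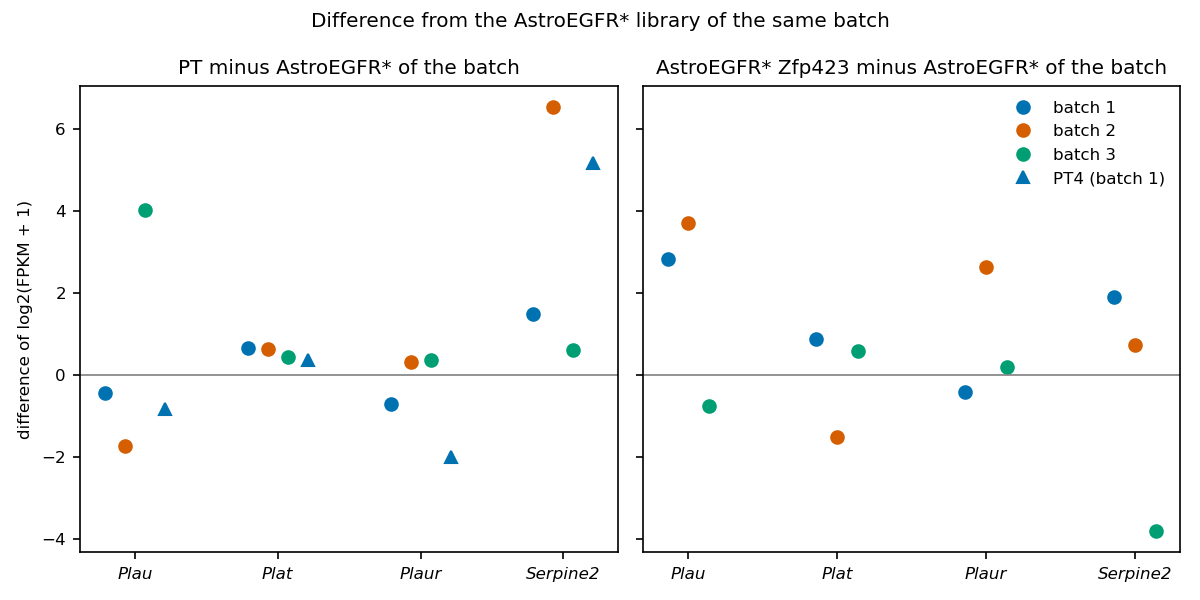
Difference of log2(FPKM + 1) between each PT (left) or AstroEGFR* Zfp423 library (right) and the AstroEGFR* library of its batch, 1 point per library coloured by batch, with PT4 as a triangle. On the left *Plat* and *Serpine2* lie above 0 in all 4 cultures; on the right each gene has points on both sides of 0.

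The transfer of *Zfp423* into the astrocytes was examined in the same way, with the batch as a block, over 12366 features. Each of the 4 genes was higher in some batches and lower in another. *Plau* was higher by 2.83 in batch 1 and 3.72 in batch 2, or 11.6 and 16.2 times in FPKM, and lower by 0.75 in batch 3. *Plaur* differed by −0.42, 2.65 and 0.20 in batches 1 to 3, *Plat* by 0.87, −1.51 and 0.60, and *Serpine2* by 1.90, 0.75 and −3.80. In batch 2 the urokinase gene and its receptor were thus both higher and *Plat* lower, and in batch 3 *Serpine2* was 18.4 times lower in FPKM. The summed markers of fibroblasts, meninges and mural cells went the same way as *Serpine2* in each batch, from 1249 to 3930, 1191 to 6677 and 5750 to 313.1 FPKM in batches 1 to 3. So did the summed microglial markers, from 12.6 to 1526, 3.35 to 883.5 and 3.58 to 1.20 FPKM. The astrocyte sums were lower with *Zfp423* in every batch (260.5, 27.0 and 920.2 FPKM). In PT, where *Serpine2* was higher than in each batch, the fibroblast, meningeal and mural sums were lower instead. The microglial sums were lower in PT1 and PT4 and higher in PT2 and PT3. The part of any of these lists in the level of *Serpine2* was not tested.

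The log2 fold changes over the 3 batches were 1.93 (SE 0.98) for *Plau*, −0.01 (SE 0.56) for *Plat*, 0.81 (SE 0.68) for *Plaur* and −0.39 (SE 1.22) for *Serpine2*. Limma gave adjusted p-values of 0.654, 0.997, 0.751 and 0.938 in this order. Exact sign-change tests within the 3 pairs, two-sided, gave p = 0.5, 1, 0.75 and 1, where the smallest p they allow is 0.25. The means on the log2 scale were 3.52 ± 2.85, 6.33 ± 1.04, 4.66 ± 1.36 and 3.74 ± 2.01 (SD, n = 3) with *Zfp423*, against the AstroEGFR* means given above. No feature passed in this comparison (0% called), while 913 of the features, or 7.38%, had an unadjusted limma p below 0.05, and 2 passed without the block. The groups of libraries did not overlap for 11.5% of features and overlapped for all 4 genes. The value of *Plau* moved with the batches that entered: it was 1.48 without batch 1, 1.04 without batch 2 and 3.28 without batch 3 (limma adjusted p = 1.0, 0.874 and 0.132).

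**Figure D3:**
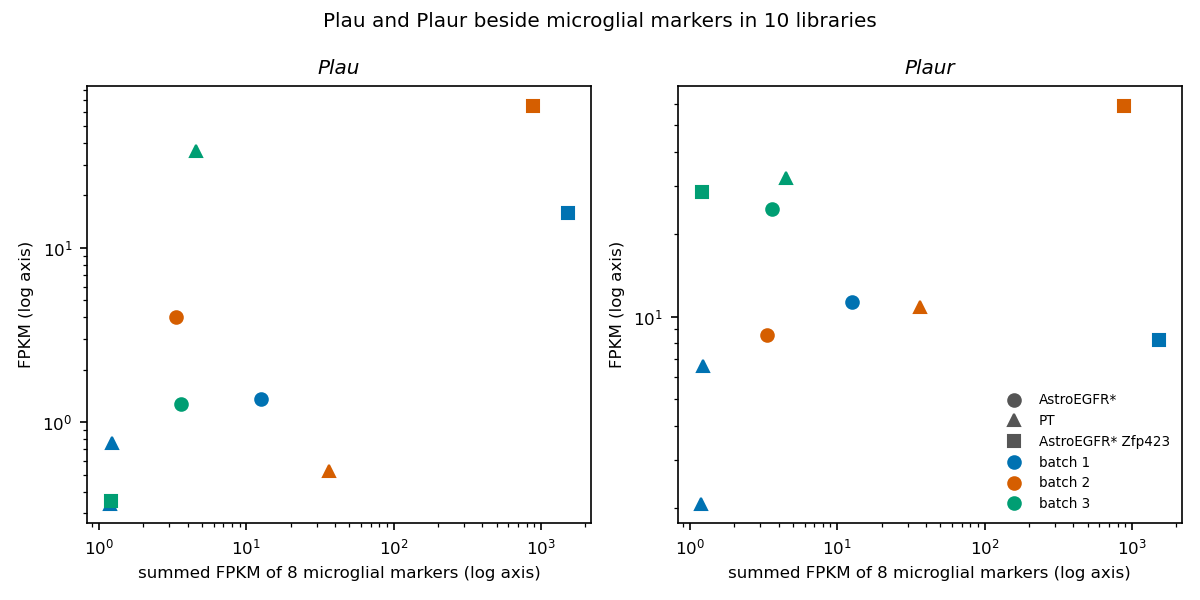
FPKM of *Plau* (left) and *Plaur* (right) against the summed FPKM of 8 microglial markers (log axes) in the 10 libraries, with the shape giving the group and the colour the batch. The 2 libraries at 883.5 and 1526 FPKM of markers have *Plau* at 65.1 and 15.9 FPKM, and PT3, at 4.52 FPKM of markers, has 36.0 FPKM.

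Both libraries in which *Plau* was above its batch with *Zfp423* were those with all 8 microglial markers, and microglia are known to express *Plau* and *Plaur*. In AstroEGFR*1 Zfp423 and AstroEGFR*2 Zfp423 *Csf1r* was at 202.4 and 107.7 FPKM and *C1qa* at 433.2 and 290.5 FPKM, whereas *Plaur* was at 8.22 and 58.9 FPKM. In AstroEGFR*3 Zfp423 the markers summed to 1.20 FPKM with 5 of the 8 listed at 0, and *Plau* was at 0.351 and *Plaur* at 28.5 FPKM. The part of these transcripts in the difference was not tested. In PT3, where *Plau* was at 36.0 FPKM, the markers summed to 4.52 FPKM, *Aif1*, *Tyrobp* and *Itgam* were listed at 0, and *Csf1r* was at 0.158 FPKM. The 6 markers of fibroblasts, meninges and mural cells summed to 134.4 FPKM in PT3, the highest of PT (0.684 to 45.2 FPKM in the others), to between 1191 and 5750 FPKM in AstroEGFR*, and to 3930, 6677 and 313.1 FPKM with *Zfp423* in batches 1 to 3. Their part in the level of *Plau* was not tested either.

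The balance between the serpin and the activators was described by a ratio within each library, which no scaling between libraries affects. The FPKM of *Serpine2* divided by that of *Plau* and *Plat* together was 0.326, 0.0447 and 0.507 in AstroEGFR*. It was 0.610, 3.28, 0.460 and 9.96 in PT1 to PT4, and 0.598, 0.0883 and 0.0183 with *Zfp423* in batches 1 to 3. *Serpine2* thus exceeded the summed activators in PT2 and PT4 only, and the activators exceeded it 54.7 times in AstroEGFR*3 Zfp423. Compared with AstroEGFR* of the same batch the ratio was higher in PT1, PT2 and PT4 and lower in PT3.

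The share of *Plau* in the summed activators was low in most libraries. It was 2.91%, 3.63% and 1.21% in AstroEGFR* and 1.03%, 0.312%, 20.1% and 0.575% in PT1 to PT4. With *Zfp423* it was 15.9%, 63.9% and 0.220%. tPA was therefore the main activator transcript in 9 of the 10 libraries, the exception being AstroEGFR*2 Zfp423. *Plaur* exceeded *Plau* in 7 libraries, by 2.13 to 81.1 times, and was below it in PT3, AstroEGFR*1 Zfp423 and AstroEGFR*2 Zfp423.

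**Figure D4:**
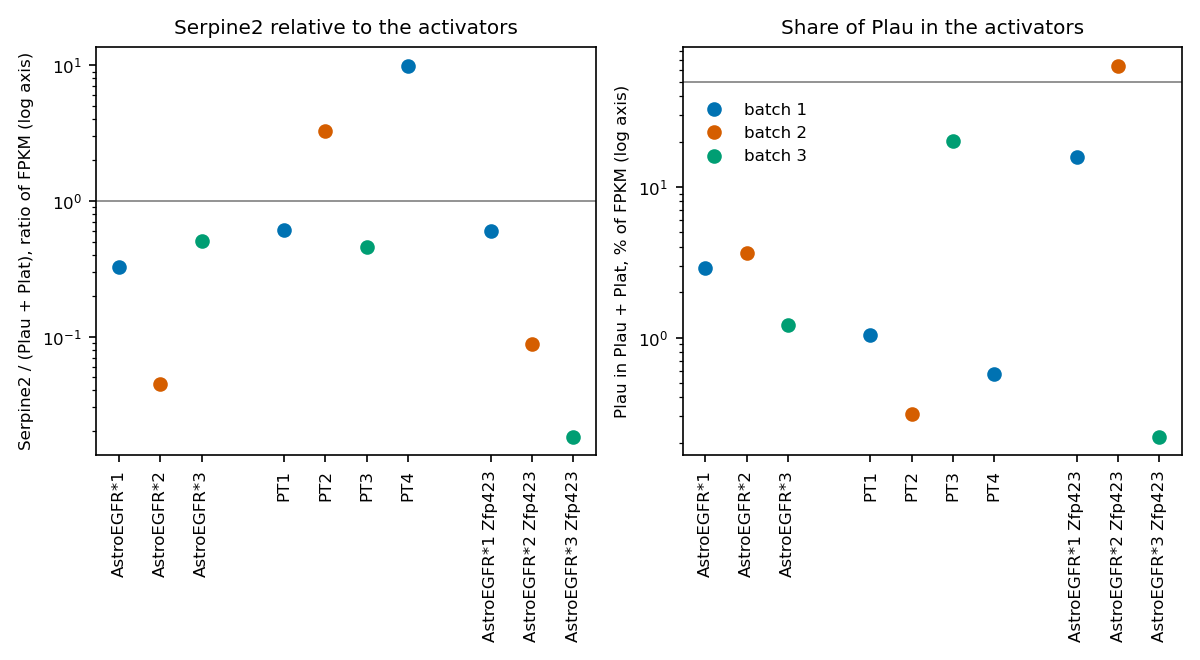
Left, FPKM of *Serpine2* divided by the summed FPKM of *Plau* and *Plat* in each library (log axis, line at 1); right, share of *Plau* in the summed FPKM of the 2 activators in percent (log axis, line at 50%). Points are coloured by batch; PT2 (3.28) and PT4 (9.96) alone lie above 1 on the left, and AstroEGFR*2 Zfp423 (63.9%) alone lies above 50% on the right.

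The other genes of the system were taken from 7 lists of 25 genes. In PT against AstroEGFR* 17 were tested and 8 were under the filter. Of the 17, 6 had higher and 11 lower values, none was called, and 7 had an unadjusted p below 0.05, where 13.6% of all features did. The groups did not overlap for 5 of the 17, against 14.8% of all features. The median log2 fold change was −0.30, against 0.03 over all features. The counts and the median include *Serpini1* and *Thbd*, which reached the filter only through AstroEGFR*, where they were high. The counts are therefore not read as a shift of the lists. With *Zfp423* 18 were tested, 11 with higher and 7 with lower values, and none was called. An unadjusted p below 0.05 was found for 3 of the 18, against 7.38% of all features, and groups that did not overlap for 3, against 11.5%. The median was 0.18, against 0.02 over all features. Both comparisons share the 3 AstroEGFR* libraries.

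The substrate of the activators was hardly seen. *Plg*, plasminogen itself, was listed at 0 in 9 libraries and at 0.00621 FPKM in AstroEGFR*2. *Serpinf2* (the plasmin inhibitor alpha2-antiplasmin), *Cpb2* (a carboxypeptidase that slows fibrinolysis) and *F2* (thrombin) reached no more than 0.0756 FPKM in any library. *A2m*, a broad protease inhibitor and the highest of that list, ranged from 0.0748 to 83.2 FPKM, with log2 fold changes of −0.38 (SE 1.19) in PT and −1.32 (SE 0.86) with *Zfp423*. Of the further serpins of the activators, *Serpina5* was listed at 0 throughout and *Serpinb2* was under the filter. *Serpini1* (neuroserpin, an inhibitor of tPA) was at 1.83 to 2.59 FPKM in AstroEGFR* and at 0.125 to 1.03 FPKM in PT. It reached the mean of 1 FPKM only through AstroEGFR*, where it was high, so its difference is given without a test. It is nevertheless counted above among the 17 genes tested, the 11 lower, the 7 and the 5.

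All 4 plasminogen receptors were expressed. The highest was *Anxa2*, which with *S100a10* forms the annexin A2 heterotetramer that gathers plasminogen and tPA at the membrane. *Anxa2* ranged from 418.3 to 1339 FPKM in AstroEGFR* and from 61.2 to 729.7 FPKM in PT (log2 fold change −1.59, SE 0.84, limma adjusted p = 0.468). *S100a10* had a log2 fold change of −1.93 (SE 0.79, limma adjusted p = 0.338), and all PT libraries (16.2 to 182.5 FPKM) were below all AstroEGFR* libraries (247.8 to 313.7 FPKM). The markers of fibroblasts, meninges and mural cells, cells known to express both genes, moved the same way, with sums of 1191 to 5750 FPKM in AstroEGFR* and 0.684 to 134.4 FPKM in PT, and their part in these values was not tested. With *Zfp423* the values were 0.23 (SE 0.69) and 0.34 (SE 0.59). *Plgrkt*, a transmembrane plasminogen receptor, was even across the libraries, between 23.9 and 38.5 FPKM. *Eno1*, at 1.74 to 31.3 FPKM, is uncertain, since its reads can be shared with near-identical pseudogenes.

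The list of clearance genes held the nearest values to the threshold. Its receptors of the LDL receptor family take up complexes of the serpins with the activators. *Lrp1*, the main one and the highest of the list, was at 36.4 to 67.1 FPKM in AstroEGFR*, 118.2 to 167.8 FPKM in PT and 73.5 to 105.1 FPKM with *Zfp423*. The PT libraries were all above the AstroEGFR* libraries, with a log2 fold change of 1.55 (SE 0.29, limma adjusted p = 0.0553). Fitted with all 10 libraries it passed (limma adjusted p = 0.0445) and with the block it did not (adjusted p = 0.0509); the highest adjusted p of the alternatives was 0.232. *Vldlr*, a receptor of the same family, was at 2.03 to 8.81 FPKM in AstroEGFR*, 11.7 to 40.0 FPKM in PT and 9.64 to 52.2 FPKM with *Zfp423*. Its log2 fold change was 2.42 in PT (SE 0.53, limma adjusted p = 0.0879) and 2.31 with *Zfp423* (SE 0.29, limma adjusted p = 0.628). *Lrp2* (megalin) had a log2 fold change of −1.88 in PT (SE 0.67, limma adjusted p = 0.282). With the batch as a block and PT4 in batch 1, *Vldlr*, *Lrp2* and the growth factor gene *Pdgfc* passed (limma adjusted p = 0.0331, 0.0300 and 0.0353), 3 of 17 where 3.87% of all features did. PT1 and PT4 share the library AstroEGFR*1 there, and none of the 3 passed under any other alternative: with the block by number alone the adjusted p was 0.0978, 0.0972 and 0.125, and with PT1 and PT4 averaged 0.103, 0.392 and 0.146.

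Among the substrates of the activators or plasmin, *Pdgfc*, whose product tPA is known to activate, was the highest. It was at 13.5 to 65.0 FPKM in AstroEGFR* and 1.94 to 9.43 FPKM in PT, without overlap, with a log2 fold change of −2.68 (SE 0.60, limma adjusted p = 0.0915). The fibroblast, meningeal and mural markers were also lower in PT, and their part in this value was not tested. *Tgfb1* had a value of −1.64 (SE 0.62, limma adjusted p = 0.308) and passed only when AstroEGFR*2 was left out (adjusted p = 0.0208). *Igf2r*, a receptor that binds uPAR and latent TGF-beta, had log2 fold changes of 0.38 (SE 0.52) in PT and 0.94 (SE 0.25, limma adjusted p = 0.628) with *Zfp423*. *F2r*, the thrombin receptor, was between 66.9 and 221.1 FPKM in all libraries, with log2 fold changes of −0.30 (SE 0.43) and −0.45 (SE 0.35). *Thbd* (thrombomodulin) was at 0.131 to 34.7 FPKM in AstroEGFR* and 0.0125 to 0.431 FPKM in PT, and like *Serpini1* reached the filter in PT against AstroEGFR* only through AstroEGFR*. It is counted above among the 17 genes tested and the 11 lower. *Bdnf*, a growth factor whose precursor plasmin cuts, had log2 fold changes of 0.92 (SE 0.74) in PT and 1.42 (SE 0.68, limma adjusted p = 0.647) with *Zfp423*. *Hgf* reached at most 6.21 FPKM and *Vtn*, the gene of vitronectin, 0.432 FPKM in any library. Of the remaining genes of the clearance list, *Lrpap1* was even (30.8 to 50.4 FPKM) and *Mrc2* was not (0.586 to 96.5 FPKM), with log2 fold changes in PT of −0.22 (SE 0.21) and 0.0017 (SE 0.78).

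**Figure D5:**
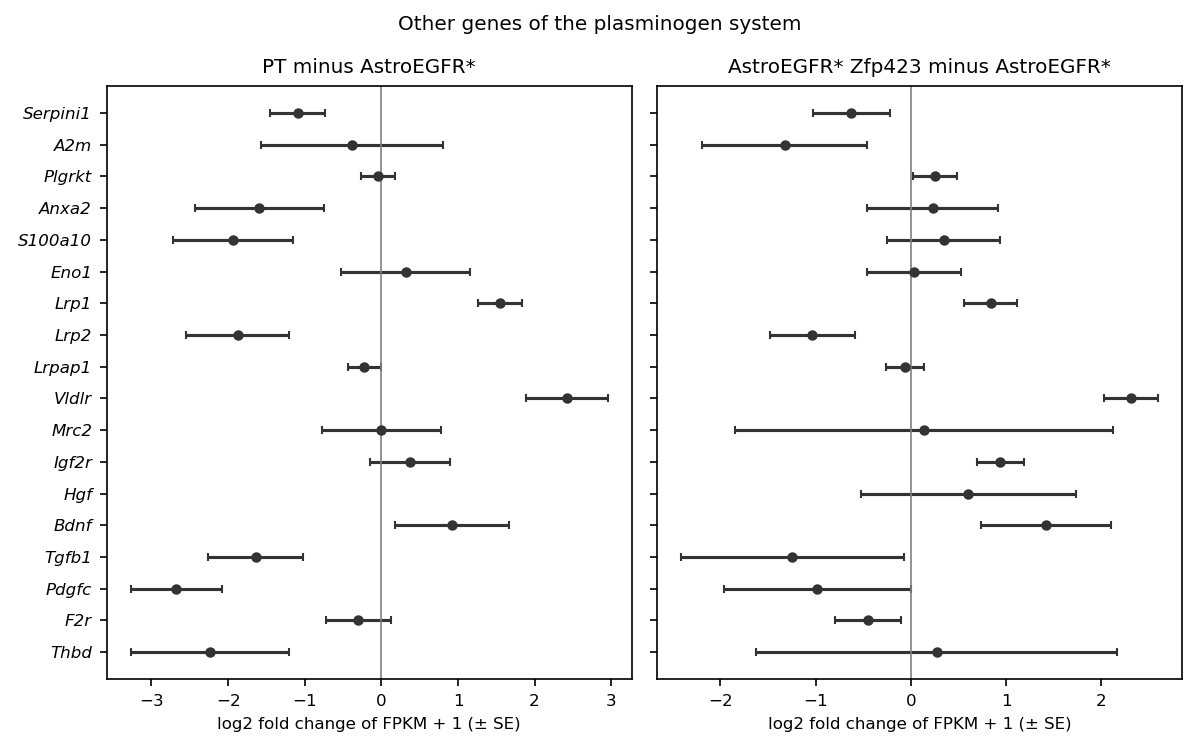
Log2 fold change on the log2(FPKM + 1) scale, with its standard error, of the other genes of the plasminogen system in PT against AstroEGFR* (left, 17 genes, 3 and 4 libraries) and in AstroEGFR* Zfp423 against AstroEGFR* (right, 18 genes, 3 and 3 libraries). *Lrp1* (1.55) and *Vldlr* (2.42) lie furthest above 0 on the left and *Pdgfc* (−2.68) furthest below, and none passes the threshold of 0.05 in either comparison. *Serpini1* and *Thbd* on the left reached the filter only through AstroEGFR*, where they were high, and are not read as results.

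The features whose pattern over the 10 libraries was most like each gene were taken by Pearson's r of log2(FPKM + 1) among 11687 features with at least 1 FPKM in 5 or more libraries. For *Plau* they were *Adh7* (r = 0.94), *Ly6a* (0.91), *Ly6c1* (0.89), *Gla* (0.86) and *Xaf1* (0.86). *Adh7*, a retinol and alcohol dehydrogenase, and *Ly6a* and *Ly6c1*, which like *Plaur* belong to the Ly6/uPAR family, were highest in AstroEGFR*2 Zfp423 or PT3, as *Plau* was. For *Plat* they were *Trpc1* (0.91), *Clcn2* (0.91), *Tmem161b* (0.91), *Rapgef4* (0.90) and *Ascc1* (0.90). The features nearest to *Plaur* were *Pip5k1a* (0.92), *Wbp4* (0.92), *Bin3* (0.91), *Slc4a1ap* (0.90) and *Nadk* (0.90), and those nearest to *Serpine2* were *Engase* (0.91), *Atg4a* (0.90), *Nol3* (0.89), *Igdcc4* (0.89) and *Slc36a1* (0.88). Each is the top of many correlations over libraries that share batches. Without AstroEGFR*1 Zfp423 and AstroEGFR*2 Zfp423, a choice made after their microglial markers were seen, 1 of the 5 stayed among the nearest for *Plau* and for *Serpine2*, 2 for *Plaur* and none for *Plat*.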

How the data were processed

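Total RNA of 10 libraries was sequenced. The authors deposited 1 matrix of FPKM values for 23230 features named by symbol, and the submitters' processing notes name TopHat 1.3, Cuffnorm and mm9. The labels give a TruSeq RNA kit and a lentiviral *Zfp423* vector, where the paper describes stranded libraries without ribosomal RNA and a retroviral vector. No genome of that build was used, so no position was tied to the FPKM values, and the promoter windows printed are RefSeq's on GRCm38.p6. No counts were given, so no count model was fitted and the depth behind a single value is unknown. Relative depth came from features that 3 or more libraries list at 0.

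PT was compared with AstroEGFR* without a block and AstroEGFR* Zfp423 with the batch as a block, by limma 3.58.1 in R 4.3.3 (empirical Bayes with a trend) on log2(FPKM + 1), which understates changes of weakly expressed genes. Features needed a mean of 1 FPKM, and Benjamini-Hochberg adjustment ran over all of them with a threshold of 0.05. Permutation tests and ratios used Python 3.11.15 with scipy 1.17.1. Replicates were cultures, and p-values measure the spread between them. Same-batch deviations correlated at 0.35 (PT1), 0.43 (PT2), 0.50 (PT3) and 0.42 (PT4) with AstroEGFR*, and at 0.24, −0.11 and −0.26 with *Zfp423*, where the pairing comes from the batch. AstroEGFR*3 correlated at 0.30 with AstroEGFR*2 Zfp423, and AstroEGFR*2 at 0.22 with AstroEGFR*3 Zfp423. The other pairs of unlike batch with *Zfp423* lay between −0.23 and 0.03. The block with *Zfp423* therefore rests on the labels, and these values do not show the pairing in batches 2 and 3. The genes and lists were chosen with earlier results of these data known. The rule for named genes took the 4 genes, the highest gene of each pathway list, those past the threshold and the 5 features most like each gene; the other genes of the lists were named after their values were seen. *Plgrkt* was found under an older symbol. Other inhibitors and receptors of the activators were not analysed here.

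Alternatives were a pseudocount of 0.1, no filter, median-ratio scaling, equal totals without small non-coding RNA and histone features, no trend, all 10 libraries in 1 fit, the block, PT1 and PT4 averaged, each library left out, and batch 3 left out.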

Additional observations from a re-analysis of the deposited data

Results flagged for a closer look

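Within PT, *Plau* had 1 culture far from the other 3. On the log2(FPKM + 1) scale the gap between PT3 (36.0 FPKM) and the nearest PT library was 0.918 of the range of the group, above Dixon's 95% critical value for 4 samples. Chance gives such a gap in about 1 of 20 groups of normally distributed values, and 4 genes were examined. The gap was taken with the pseudocount of 1 only, which draws together the other 3 cultures, at 0.342 to 0.759 FPKM. PT3 was also among the shallow libraries (0.0915 of the depth of PT1). *Plat*, *Plaur* and *Serpine2* had gaps of 0.197, 0.432 and 0.234 of their ranges.

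The difference of *Serpine2* between AstroEGFR* with and without *Zfp423* went in opposite directions in different batches. It was 1.90 in batch 1, 0.75 in batch 2 and −3.80 in batch 3, on the log2(FPKM + 1) scale. With 1 library on each side of a batch, the difference between batches was not tested. AstroEGFR*3 was a shallow library (0.0743 of the depth of PT1) and AstroEGFR*3 Zfp423 was not (0.518). The summed fibroblast, meningeal and mural markers moved the same way, from 1249 to 3930 FPKM in batch 1, 1191 to 6677 FPKM in batch 2 and 5750 to 313.1 FPKM in batch 3. The microglial markers did too, from 12.6 to 1526, 3.35 to 883.5 and 3.58 to 1.20 FPKM. In PT, where *Serpine2* was higher than in each batch, the fibroblast, meningeal and mural sums were lower instead (0.684 to 134.4 FPKM). The part of either list was not tested.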

How the results depend on the processing

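None of the 4 genes passed the threshold under any of the 17 alternatives in PT or the 10 with *Zfp423*. The log2 fold change of *Serpine2* in PT was between 2.65 and 4.65 over the alternatives (limma adjusted p from 0.172 to 0.519), and that of *Plaur* was negative in all of them, from −1.15 to −0.01. *Plau* in PT changed sign with a pseudocount of 0.1 (−0.24) and without batch 3 (−1.17), and ranged from −0.97 to 0.62 when 1 library was left out. *Plat* in PT ranged from −0.068 without AstroEGFR*1 to 0.58. With *Zfp423*, *Plat* changed sign under median-ratio scaling (0.0034) and ranged from −0.46 to 0.74 when 1 batch was left out. In the same fits *Plau* ranged from 1.04 to 3.28, *Plaur* ranged from −0.11 to 1.42 and *Serpine2* from −1.53 to 1.32, the last without batch 3. The cause of these changes was not tested, and fits that leave libraries out also rest on fewer of them.

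The replicate block changed no call of the 4 genes. By number alone, with PT4 unpaired, it gave 16 called features in PT in place of 152, and with PT4 in batch 1 it gave 475. Without the block, 2 were called with *Zfp423* in place of 0. In PT the count was 82 with all libraries in 1 fit, 59 with PT1 and PT4 averaged and 8 without batch 3, and from 7 (without AstroEGFR*1) to 123 (without AstroEGFR*2) when 1 library was left out, being 54 without AstroEGFR*3, 97 without PT1, 70 without PT2 and 58 without PT4. With *Zfp423* it was 51 without batch 2 and 0 without batch 1 or 3. By Spearman's rho, 3, 2, 1 and 1 of the 5 features most like *Plau*, *Plat*, *Plaur* and *Serpine2* stayed among the nearest. Low values in AstroEGFR*3 and PT3 rest on fewer fragments than in the other libraries.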
